A study of Homo sapiens with 6 samples.

Results

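The clustered histone genes encode the linker histone H1 and the core histones H2A, H2B, H3 and H4 that wrap the DNA of a dividing cell. They were taken from the deposited table by name, as the features carrying the standard symbols of these families and marked as protein coding, and came to 63 of the 35424 features. Of these, 5 encode H1, 15 encode H2A, 16 encode H2B, 13 encode H3 and 14 encode H4. The large cluster on chromosome 6 held 51 of them, chromosome 1 held 11 and chromosome 12 held 1. RNA-seq was performed on wild-type THP-1 cells, an established line from a human monocytic leukaemia, either left without treatment or treated with PMA, with 3 libraries in each group. PMA, an activator of protein kinase C, pushes THP-1 cells to become macrophage-like and slows their division. How much PMA was given for these libraries, and for how long, was not stated in the sources read. The study describes the libraries as biologically independent experiments.

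In dividing cells, most histone protein is made during S phase from mRNAs of these genes that carry no poly(A) tail. Their mRNAs end just after a conserved stem-loop, which the stem-loop binding protein SLBP holds and where the U7 small nuclear RNP directs the cut. The same genes can also give transcripts that read through the stem-loop to a later poly(A) signal, and such tailed transcripts have been described in differentiated and resting cells for some of them. The libraries were made from RNA captured on oligo(dT) beads, which keeps RNA with a poly(A) tail or an internal run of A, so the tail-less mRNAs are largely outside what was measured.

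The stem-loops are shown first because they define where the tail-less mRNA ends. A 16-base stem-loop was found 23 to 68 bases after the stop codon in 63 of the 63 genes. The same search found it in 0.428% of the other protein-coding genes of GENCODE v44. It looked, within 100 bases after the stop codon on GRCh38 (hg38), for GG at the start, CC at the end, T at the first base of the 4-base loop and again after 1 more base, and at least 5 of 6 paired stem bases. Each is given with 5 flanking bases on each side, and the capitals mark the stem and loop.
H1-2, chr6:26055739-26055764, minus strand: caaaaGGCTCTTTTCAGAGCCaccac
H2BC21, chr1:149886183-149886208, minus strand: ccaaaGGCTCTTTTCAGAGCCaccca
H2BC12, chr6:27146361-27146386, minus strand: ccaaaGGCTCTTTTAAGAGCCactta
H4C14, chr1:149833027-149833052, plus strand: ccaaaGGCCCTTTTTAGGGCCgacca
H4C8, chr6:26285126-26285151, minus strand: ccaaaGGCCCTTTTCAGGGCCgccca
H2AC20, chr1:149887386-149887411, plus strand: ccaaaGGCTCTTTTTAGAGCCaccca
The form of H1-2 and H2BC21 was shared by 36 genes of the H1, H2A, H2B and H3 classes and that of H2BC12 by 8. The form of H4C8 was shared by 9 H4 genes and that of H4C14 by 4 H4 genes. The exact form of H2AC20 was found in no other of the 63 genes.

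Most of the clustered histone genes gave little RNA in these libraries. Summed over the 63 genes, they took 0.00419% to 0.00504% of all counts in the untreated libraries and 0.00915% to 0.0122% in the PMA libraries. The value of each gene is given in FPKM, the authors' fragment count scaled to transcript length and library size, which allows levels to be compared between genes. In total, 41 of the 63 genes stayed under 1 FPKM in every library. The test covered genes with at least 1 FPKM in at least 3 of the 6 libraries, which 15 of the 63 passed. Of those 15, 6 reached this minimum through the PMA libraries alone (H2BC18, H2BC21, H3C14, H3C15, H4C14 and H4C15), so they could only pass by being higher there, and the counts below carry that selection.

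By edgeR's quasi-likelihood test, at an adjusted p under 0.05 over all 12947 genes tested, 12 of the 15 rose after PMA, 2 fell and H2BC9 passed in neither direction. Over all genes tested, 32.7% were called higher and 32.8% lower. With no filter on low values, where all 63 could be tested, 10 rose, 1 fell and 52 passed in neither direction, beside 13.9% of all features called higher and 14.6% called lower. The median log2 fold change of the 63 in that fit was 0.12, against 0.20 over all features tested in it and -0.01 over the genes of the filtered test. In bulk RNA, fewer cells making an RNA and less of it per cell cannot be told apart.

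**Figure D1:**
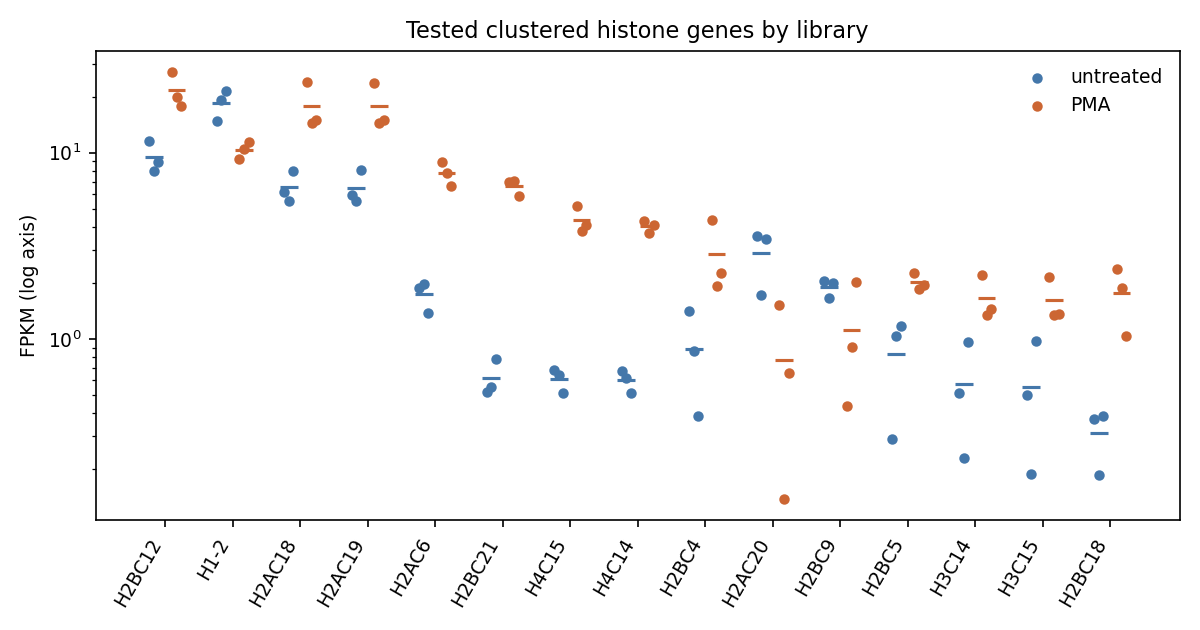
Level of the 15 tested clustered histone genes in each library, in FPKM on a log axis, with 3 untreated libraries in blue and 3 PMA libraries in orange and the group mean as a short line. The groups are apart in 14 of the 15 genes, with H1-2 and H2AC20 lower after PMA and only H2BC9 overlapping. In the 6 genes that passed the minimum through PMA libraries alone, the filter itself sets the groups apart. The share of all tested genes with groups apart was not counted.

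The exact two-sided permutation test on log2 CPM gave p = 0.1 for 14 of these 15 genes, the smallest value that 3 against 3 libraries allow. The FPKM values of these 14 did not overlap between the groups. For the 6 genes that reached the minimum through PMA libraries alone, the filter itself fixed that separation. Their permutation p thus adds nothing to their calls. The same shares over all tested genes were not counted, so the 14 cannot be set against them. The histone genes stood at 236 to 4677 counts over the 6 libraries in the tested genes and at up to 534 in the others.

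The linker histone gene H1-2 had the highest FPKM of the clustered histone genes in the poly(A)-captured RNA of untreated cells, and it fell after PMA. H1-2 encodes H1.2, which binds the DNA between nucleosomes. It was at 14.8, 19.1 and 21.4 FPKM in the untreated libraries and at 9.29, 10.5 and 11.3 FPKM in the PMA libraries. All 3 PMA libraries lay below all 3 untreated ones. The log2 fold change was -0.80 ± 0.17 (SE, edgeR adjusted p = 0.00396), and its call was kept in every alternative run. H1-2 alone held 25.0% to 33.4% of the summed FPKM of the 63 genes in the untreated libraries, where it ranked highest in each. Taken record by record, H2BC12 ranked highest in each PMA library with 17.7% to 19.5%. The near-identical pair H2AC18 and H2AC19, best read as 1 signal, summed to 47.74, 28.997 and 29.982 FPKM there, above H2BC12 in each. In each untreated library the sum of that pair was below H1-2. The other 4 H1 genes did not reach the minimum. H1-4, one of the most counted among the untested genes, ranged from 0.184 to 0.752 FPKM untreated and from 0.228 to 0.901 FPKM after PMA, and the groups overlapped.

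Of the H2A genes, which encode the core histone that pairs with H2B, 4 of 15 were tested, 3 rose and 1 fell. H2AC6, which encodes H2A type 1-C and is known to give polyadenylated transcripts, was at 1.89, 1.98 and 1.38 FPKM untreated and at 8.86, 7.76 and 6.66 FPKM after PMA. The lowest PMA library was well above the highest untreated one. Its log2 fold change was 2.18 ± 0.19 (SE, edgeR adjusted p = 3.02e-05). The adjacent genes H2AC18 and H2AC19 on chromosome 1 encode nearly the same transcript. H2AC18 was at 6.12, 5.52 and 7.96 FPKM untreated and at 24.0, 14.5 and 15.1 FPKM after PMA. H2AC19 followed at 5.93, 5.51 and 8.06 FPKM and then 23.7, 14.5 and 14.9 FPKM. In both, PMA replicate 1 stood highest, and the log2 fold change was 1.48 ± 0.26 (SE, edgeR adjusted p = 0.00123 for H2AC18 and 0.00132 for H2AC19). Their counts differed by at most 3.02% in any library, so the reads of the pair could not be assigned to either gene with certainty, and the pair is best read as 1 signal.

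H2AC20 was the only H2A gene that fell. It was at 3.57, 1.73 and 3.44 FPKM untreated and at 1.52, 0.138 and 0.654 FPKM after PMA, with a log2 fold change of -1.85 ± 0.65 (SE, edgeR adjusted p = 0.0358). The untreated library at 1.73 and the PMA library at 1.52 were close, and the PMA libraries held 52, 5 and 22 counts. The call was lost with no filter (edgeR adjusted p = 0.0799) and without untreated replicate 1 (0.0781), untreated replicate 3 (0.0843) or PMA replicate 3 (0.102), and with PMA replicates 2 and 3 averaged (0.0585).

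Of the H2B genes, 6 of 16 were tested and 5 rose. H2BC21, which encodes H2B type 2-E and is known to give polyadenylated transcripts, had the largest rise of all the tested clustered histone genes. It was at 0.517, 0.550 and 0.784 FPKM untreated and at 6.93, 7.01 and 5.82 FPKM after PMA, on 95 to 111 counts and 867 to 1050 counts. The PMA libraries were close to each other and far above the untreated ones. Its log2 fold change was 3.45 ± 0.22 (SE, edgeR adjusted p = 5.55e-06).

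H2BC12, encoding H2B type 1-K, was the highest H2B gene by FPKM in both groups. It was at 11.5, 7.98 and 8.92 FPKM untreated and at 27.1, 19.9 and 17.9 FPKM after PMA. Its lowest PMA value exceeded its highest untreated one, with a log2 fold change of 1.22 ± 0.22 (SE, edgeR adjusted p = 0.00137). In counts, which are not scaled to transcript length, H2BC21 was above H2BC12 in each PMA library (1050, 1037 and 867 against 913, 654 and 594). H2BC4 was at 1.41, 0.860 and 0.388 FPKM and then 4.35, 1.92 and 2.26 FPKM, a log2 fold change of 1.70 ± 0.47 (SE, edgeR adjusted p = 0.0135). Its untreated libraries were spread over more than their mean, and the call was lost with no filter (edgeR adjusted p = 0.0557). H2BC5 was at 0.289, 1.03 and 1.17 FPKM and then 2.25, 1.85 and 1.96 FPKM. Its rise of 1.31 ± 0.46 on the log2 scale (SE, edgeR adjusted p = 0.0337) was lost with no filter (0.127), without untreated replicate 2 (0.0501), without PMA replicate 1, 2 or 3 (0.0703, 0.0594 and 0.0683) and with PMA replicates 2 and 3 averaged (0.0610).

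H2BC18 was at 0.371, 0.186 and 0.387 FPKM untreated and at 2.37, 1.87 and 1.04 FPKM after PMA. The groups were apart, and the log2 fold change was 2.51 ± 0.41 (SE, edgeR adjusted p = 0.000872). Its record, however, spans 29685 bases and overlaps FCGR1A on the opposite strand and the unnamed feature ENSG00000233030 on its own strand. FCGR1A held 3290 to 6938 counts per library and had a log2 fold change of 0.66 ± 0.11 (edgeR adjusted p = 0.00116), and ENSG00000233030 held 128 to 294 counts untreated and 509 to 576 after PMA, with 1.80 ± 0.23 (edgeR adjusted p = 0.000262). Whether strand was used in counting is unknown, and reads of H2BC18 and of these features cannot be told apart with certainty. H2BC9 was at 2.04, 1.67 and 1.99 FPKM untreated and at 0.436, 0.909 and 2.02 FPKM after PMA. PMA replicate 3 lay within the untreated range and the other PMA libraries below it. H2BC9 did not pass the test (log2 fold change -0.72 ± 0.48, edgeR adjusted p = 0.219), and without PMA replicate 3 it was called lower (-1.46, adjusted p = 0.0175).

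Of the H3 genes, 2 of 13 were tested, the near-identical pair H3C14 and H3C15 on chromosome 1, with H2AC18 and H2AC19 lying between them. H3C14 was at 0.513, 0.231 and 0.968 FPKM untreated and at 2.20, 1.34 and 1.45 FPKM after PMA, and H3C15 lay at almost the same values. Their log2 fold changes were 1.57 ± 0.50 and 1.59 ± 0.54 (SE, edgeR adjusted p = 0.0237 and 0.0304) on 9 to 79 counts per library. Both calls were lost with no filter (edgeR adjusted p = 0.113 and 0.133), without untreated replicate 1 (0.0582 and 0.0710) and without PMA replicate 1 (0.0672 and 0.0823). That of H3C15 was also lost without untreated replicate 2 (0.0521) and without PMA replicate 3 (0.0504).

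Of the H4 genes, 2 of 14 were tested, again a near-identical pair, and both rose. H4C14 was at 0.670, 0.619 and 0.515 FPKM untreated and at 4.32, 3.70 and 4.11 FPKM after PMA. H4C15 was at 0.679, 0.642 and 0.515 FPKM and then 5.17, 3.78 and 4.08 FPKM. All PMA libraries of the pair stood far above all untreated ones, and PMA replicate 1 of H4C15 stood highest. The log2 fold changes were 2.77 ± 0.18 and 2.83 ± 0.21 (SE, edgeR adjusted p = 7.69e-06 and 1.20e-05). The counts of the pair differed by 0.581% to 17.6% in a library, so they too are best read as 1 signal. With each of the 3 near-identical pairs summed, 12 features were tested, of which 9 rose and 2 fell.

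**Figure D2:**
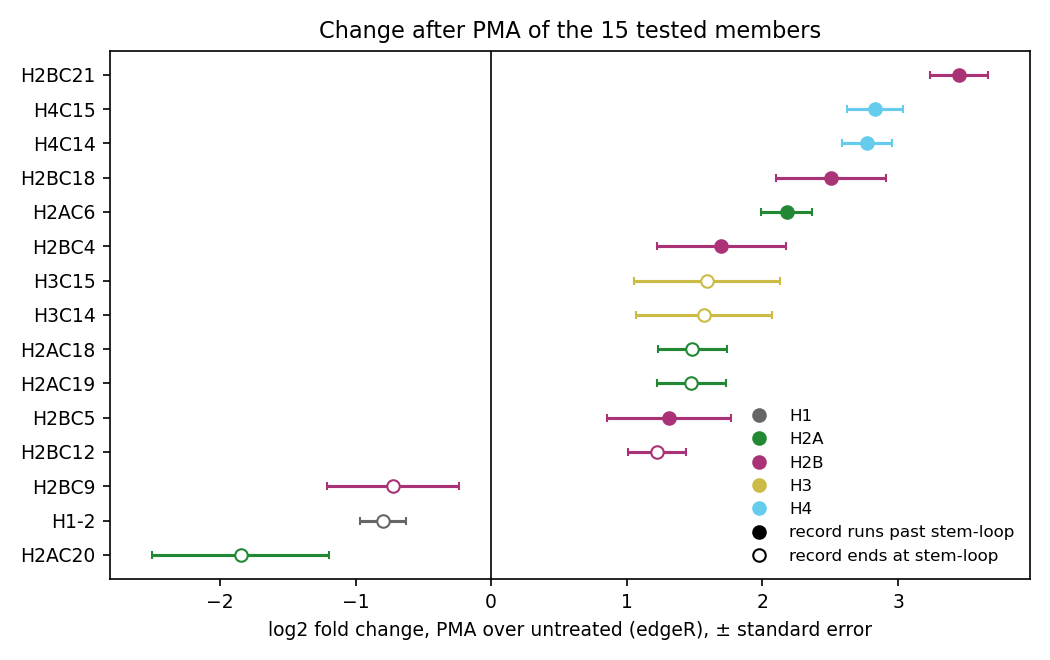
Log2 fold change of PMA over untreated for the 15 tested genes by edgeR's quasi-likelihood test, with its standard error as a bar and the histone class in colour. Filled points are genes whose record runs past the stem-loop and open points those whose record ends at it. The values run from -1.85 for H2AC20 to 3.45 for H2BC21, and the 6 genes that passed the minimum through PMA libraries alone (H2BC18, H2BC21, H3C14, H3C15, H4C14 and H4C15) could enter the plot only as higher.

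The level summed over each class followed its few abundant genes. H1 summed to 19.6 ± 4.15 FPKM untreated and to 11.5 ± 0.781 FPKM after PMA (SD, n = 3). H2A summed to 20.9 ± 3.75 and 46.7 ± 12.8 FPKM, and H2B to 15.9 ± 2.69 and 38.8 ± 6.87 FPKM. H3 summed to 3.14 ± 1.01 and 5.43 ± 1.68 FPKM, and H4 to 3.21 ± 0.393 and 11.7 ± 1.56 FPKM. The H1 total was thus lower after PMA and the other 4 class totals higher, with no overlap between the libraries of the 2 groups in any class. For H3 this was narrow, with 4.02 FPKM in untreated replicate 3 and 4.18 FPKM in PMA replicate 2. The share of all tested genes with groups apart was not counted. The H2A, H3 and H4 totals each hold both records of a near-identical pair, best read as 1 signal. Over all 63 genes, the sum was 59.3, 57.1 and 71.9 FPKM untreated and 139, 102 and 101 FPKM after PMA. These sums are descriptions and were not tested.

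The 48 genes under the minimum were low in both groups. They summed to 10.3 ± 2.44 FPKM untreated and 11.9 ± 2.49 FPKM after PMA (SD, n = 3), and no untested gene exceeded 2.10 FPKM in any library. Without filtering, 2 of them were called higher, H4C8 and H4-16. H4C8 was at 0.279, 0.125 and 0.175 FPKM untreated and at 1.09, 1.29 and 0.580 FPKM after PMA (log2 fold change 2.20, edgeR adjusted p = 0.00578). H4-16, the clustered histone gene on chromosome 12, was named only because it was called, and it was at 0.0970, 0.0670 and 0.0352 FPKM and then 0.253, 0.264 and 0.328 FPKM (1.93, edgeR adjusted p = 0.0189). In both, the groups did not overlap, although H4-16 stayed far below 1 FPKM. H2BC8 ranged from 0.0999 to 0.613 FPKM untreated and from 0.937 to 2.10 FPKM after PMA but did not pass (edgeR adjusted p = 0.0526). H2BC11 and H2BC15, also among the most counted, had log2 fold changes of 0.00 and 0.17 and overlapping groups. In all, 5 genes had 0 counts in every untreated library and 2 had 0 counts in every PMA library, each of them under the minimum.

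The deposited gene records differ in where they end, and 7 of the 10 rises found with no filter were in genes whose record extends beyond the stem-loop. The records of 14 genes run past it by 430 to 29196 bases, which includes a downstream part where a polyadenylated transcript could end, whereas those of the other 49 stop 0 to 18 bases after it. In the test with no filter, 7 of the 14 rose and 0 fell, with a median log2 fold change of 1.98. The 7 were H2AC6, H2BC18, H2BC21, H4-16, H4C8, H4C14 and H4C15. Of the 49, 3 rose (H2AC18, H2AC19 and H2BC12) and 1 fell (H1-2), with a median of -0.46. H4C14 with H4C15 among the 7, and H2AC18 with H2AC19 among the 3, are each best read as 1 signal. The share of all features called in that fit was 13.9% higher and 14.6% lower, as above. The 14 genes also had more counts, with a median of 527.5 over the 6 libraries against 43 for the 49, and the part of this in the number of calls was not tested. The call of H2BC18 carries the overlap given above.

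Per library, the 14 genes with extended records summed to 6.93, 6.76 and 6.20 FPKM untreated and to 36.6, 30.8 and 27.5 FPKM after PMA, a 4.77-fold difference of the means. The 49 that end at the stem-loop summed to 52.4, 50.3 and 65.7 FPKM and then 103, 70.9 and 73.4 FPKM, a 1.47-fold difference. Of these 49, the 41 under the minimum summed to 9.27 ± 2.42 and 9.65 ± 2.50 FPKM (SD, n = 3), which overlapped between the groups. FPKM divides by transcript length, so a change in which transcript was used could move these sums, and reads were not assigned to either side of the stem-loop here.

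**Figure D3:**
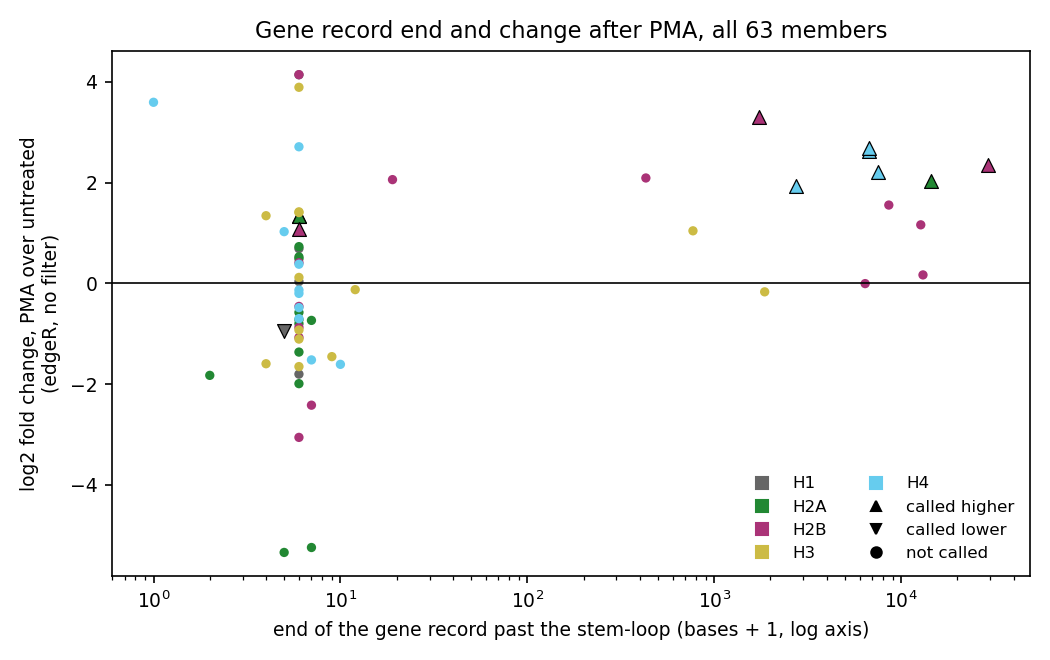
Distance by which each of the 63 gene records extends past its stem-loop (bases plus 1, log axis) against its log2 fold change of PMA over untreated in edgeR with no filter, coloured by histone class. Upward triangles are calls higher and the downward triangle the call lower, and 7 of the 10 upward triangles lie among the 14 genes on the right, while extreme values near the left edge are genes with few or 0 counts, whose fitted size depends on the tool's prior count. Among the upward triangles, H4C14 with H4C15 on the right and H2AC18 with H2AC19 on the left are each best read as 1 signal.

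The set of 6 clustered histone genes known to give polyadenylated transcripts in other cells was H1-2, H2AC6, H2BC4, H2BC5, H2BC12 and H2BC21. All 6 passed the minimum, 5 rose and H1-2 fell, with the values given above. Over all genes tested, 32.7% were called higher and 32.8% lower. H2BC21 passed the minimum through PMA libraries alone, so it could enter only as higher. The calls of H2BC4 and H2BC5 were lost in the settings named above. Records of H1-2 and H2BC12 in the deposited table nevertheless end 4 and 5 bases after the stem-loop, so any tailed form of these 2 that ends further on would be counted only in part.

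Many H2A and H2B genes lie head to head and share the sequence between their starts. There were 10 such pairs among the 63 genes, with 169 to 292 bases between the starts, and 3 of them held a tested gene. H2AC20 and H2BC21, 235 bases apart on chromosome 1, differed in direction, with mean levels of 2.91 and 0.770 FPKM for H2AC20 and 0.617 and 6.59 FPKM for H2BC21 in untreated and PMA cells. In untreated cells H2AC20 was thus the higher of the pair in each library, and after PMA H2BC21 was. This opposition rests on the call of H2AC20, which did not hold in the settings named above. H2AC6 and H2BC4, 218 bases apart, both rose. H2AC12 and H2BC12, 250 bases apart, were unequal throughout, with H2AC12 at 0.291 and 0.0868 FPKM and not called, beside 9.47 and 21.6 FPKM for H2BC12. In the other 7 pairs neither gene was called with no filter.

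**Figure D4:**
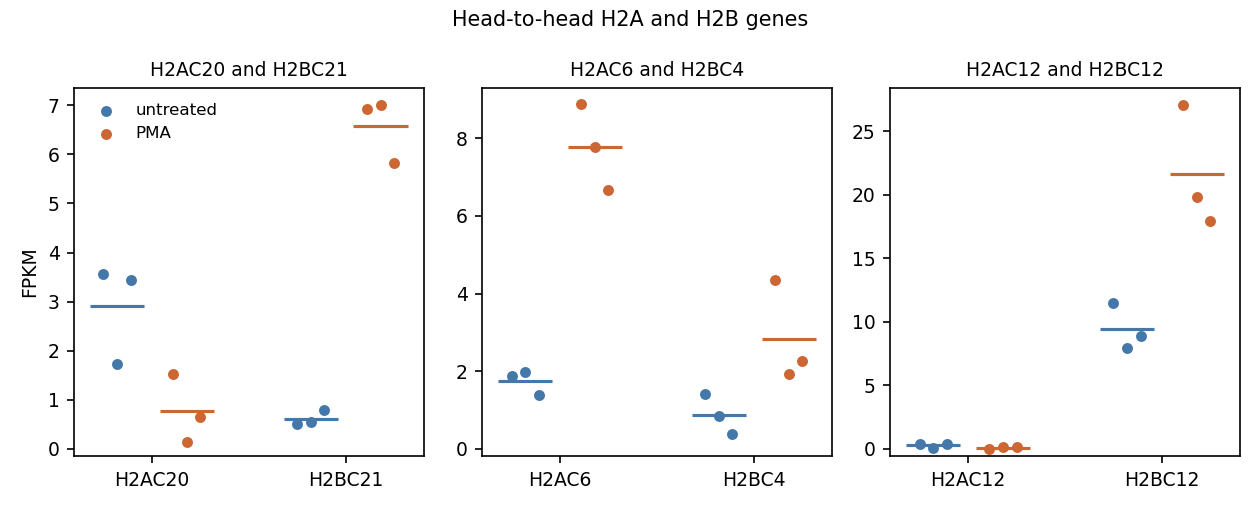
FPKM in each library of the 3 head-to-head H2A and H2B pairs that hold a tested gene, with untreated libraries in blue, PMA libraries in orange and the group mean as a line. H2AC20 falls from a mean of 2.91 to 0.770 FPKM while its neighbour H2BC21 goes from 0.617 to 6.59 FPKM, H2AC6 and H2BC4 both rise, and H2AC12 stays near 0 beside H2BC12.

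The promoter windows of these 3 pairs are shown because the paired genes are started from the same stretch. Each window runs from 250 bases before to 50 bases after the start of the H2B or H2A gene named and is taken from RefSeq on GRCh38.p14, with the motifs ATTTGCAT, CCAAT and TATAAA in capitals on either strand (ATGCAAAT, ATTGG and TTTATA on the other).
H2BC21, chr1:149886633-149886932, minus strand: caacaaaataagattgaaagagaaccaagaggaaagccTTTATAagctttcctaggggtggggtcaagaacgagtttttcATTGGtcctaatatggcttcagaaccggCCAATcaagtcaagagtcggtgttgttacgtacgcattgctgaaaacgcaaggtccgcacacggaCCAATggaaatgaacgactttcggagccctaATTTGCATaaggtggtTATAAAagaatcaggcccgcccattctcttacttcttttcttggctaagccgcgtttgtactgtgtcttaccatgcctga
H2AC6, chr6:26123922-26124221, plus strand: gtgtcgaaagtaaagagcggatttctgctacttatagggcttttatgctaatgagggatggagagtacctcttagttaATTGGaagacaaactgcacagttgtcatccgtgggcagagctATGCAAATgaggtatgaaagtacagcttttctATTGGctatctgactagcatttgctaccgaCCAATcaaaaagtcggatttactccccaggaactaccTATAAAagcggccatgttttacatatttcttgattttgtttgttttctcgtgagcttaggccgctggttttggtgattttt
H2BC12, chr6:27146806-27147105, minus strand: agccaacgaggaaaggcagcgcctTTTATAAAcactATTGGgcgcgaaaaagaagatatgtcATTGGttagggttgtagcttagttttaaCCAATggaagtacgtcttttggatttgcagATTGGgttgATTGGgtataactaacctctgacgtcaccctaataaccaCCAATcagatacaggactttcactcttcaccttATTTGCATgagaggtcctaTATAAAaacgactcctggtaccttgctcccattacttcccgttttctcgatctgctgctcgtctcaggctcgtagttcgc
The octamer ATTTGCAT, bound by OCT-family factors, was in each of the 3 windows. It was in 81.3% of the windows of 16 H2B genes and 71.4% of those of 14 H2A genes, against 1.77% of all RefSeq promoter windows of this length, and in 0 of the windows of 5 H1, 11 H3 and 11 H4 genes. CCAAT was in 86.0% of the 57 windows of clustered histone genes and 34.6% of all windows, and TATAAA in 66.7% and 11.5%. TATAAA and its reverse TTTATA overlap where TTTATAAA occurs. The window of H2AC20 covers most of that of H2BC21 and holds the same motifs, while the genes moved in different directions. The windows of H4C14 and H4C15, which rose, held none of the 3 motifs. Windows were given for 57 of the 63 genes, and a match is a description of the letters only.

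The clustered genes stood beside histone variant and replacement genes that give polyadenylated mRNA, although H2AX is also known to give a stem-loop-ended mRNA in S phase and CENPA to vary over the cell cycle. Of 10 such genes, listed as replication-independent, that were tested, 2 rose, 6 fell and 2 passed in neither direction, with a median log2 fold change of -0.34 against -0.01 over all tested genes. Of all tested genes, 32.7% were called higher and 32.8% lower. MACROH2A1, a large H2A variant, went from 29.8 to 76.6 FPKM (1.40 ± 0.07, edgeR adjusted p = 2.26e-06). H2AX, the variant phosphorylated at DNA breaks, fell from 115 to 64.0 FPKM (log2 fold change -0.82 ± 0.06, edgeR adjusted p = 1.92e-05), and CENPA, the H3 variant of centromeres, fell from 14.7 to 7.18 FPKM. H2AZ1, H2AJ and H3-3A fell by 0.68, 0.58 and 0.33 on the log2 scale. The groups of H2AZ1 overlapped, at 188, 193 and 104 FPKM untreated and 115, 90.9 and 89.4 FPKM after PMA. H3-3B, the second gene of H3.3, was at 96.2 and 94.1 FPKM and did not pass (edgeR adjusted p = 0.982). The number that fell was 3 without PMA replicate 2 and 3 without PMA replicate 3.

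S phase genes, whose products copy DNA while clustered histone genes are normally transcribed, were mostly lower after PMA. Of 26 tested, 24 fell, CCNE2 rose and CDK2 passed in neither direction, with a median log2 fold change of -0.92. Over all tested genes, 32.8% were called lower and 32.7% higher. With no filter, 25 of the 26 were called lower and 0 higher, so the call of CCNE2 was lost there. The largest falls included MCM3, a subunit of the replicative helicase, from 228 to 59.1 FPKM (-1.91 ± 0.08, edgeR adjusted p = 6.86e-07), and GINS2, from 14.8 to 5.01 FPKM (-1.53 ± 0.13). These falls and the rises of the 12 clustered histone genes were measured in the same libraries, and the part of the one in the other was not tested.

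Factors that act on histone mRNA were also mostly lower. Of 36 genes for its transcription, 3′ processing and decay, 22 fell, 3 rose and 11 passed in neither direction, with a median of -0.44. The shares over all tested genes were 32.8% lower and 32.7% higher. SLBP went from 68.9 ± 10.9 to 44.4 ± 2.06 FPKM (SD, n = 3), a log2 fold change of -0.60 ± 0.11 (SE, edgeR adjusted p = 0.00179). SNRPE, SNRPF and SNRPD3, Sm proteins that the U7 particle shares with the spliceosome, fell by 1.49, 1.38 and 1.26 on the log2 scale. NPAT, the coactivator of histone gene transcription, was at 3.47 and 4.17 FPKM and did not pass (edgeR adjusted p = 0.151). The 3 that rose were TUT7 and TUT4, terminal uridylyltransferases that add U to histone mRNAs during their decay, and the poly(A) polymerase PAPOLG. TUT7 went from 4.84 to 19.1 FPKM (log2 fold change 2.01 ± 0.08, edgeR adjusted p = 6.55e-07), TUT4 from 4.47 to 7.44 FPKM and PAPOLG from 2.69 to 3.71 FPKM. The number called higher was 5 without PMA replicate 1, and 2 with no filter, with PMA replicates 2 and 3 averaged, and without untreated replicate 1, untreated replicate 2, PMA replicate 2 or PMA replicate 3.

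Of 24 histone chaperones and assembly factors, 17 fell, 2 rose (ATRX and CABIN1) and 5 passed in neither direction, with a median of -0.61. Among all tested genes, 32.8% fell and 32.7% rose. The importin IPO4, a carrier of new histones H3 and H4, fell from 38.2 to 10.4 FPKM (-1.84 ± 0.07, edgeR adjusted p = 4.78e-07), and the CAF-1 subunit CHAF1B fell from 10.8 to 4.72 FPKM (-1.15 ± 0.09). ATRX, a partner of DAXX in H3.3 deposition, rose by 0.64 ± 0.18 on the log2 scale. The number called higher was 1 without untreated replicate 1 or 2 or without PMA replicate 2 and 0 without PMA replicate 3. It was also 0 with no filter and 1 with PMA replicates 2 and 3 averaged. With a mean FPKM of at least 5 or without PMA replicate 1 it was 3. These rises thus depend on single libraries and on the setting.

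**Figure D5:**
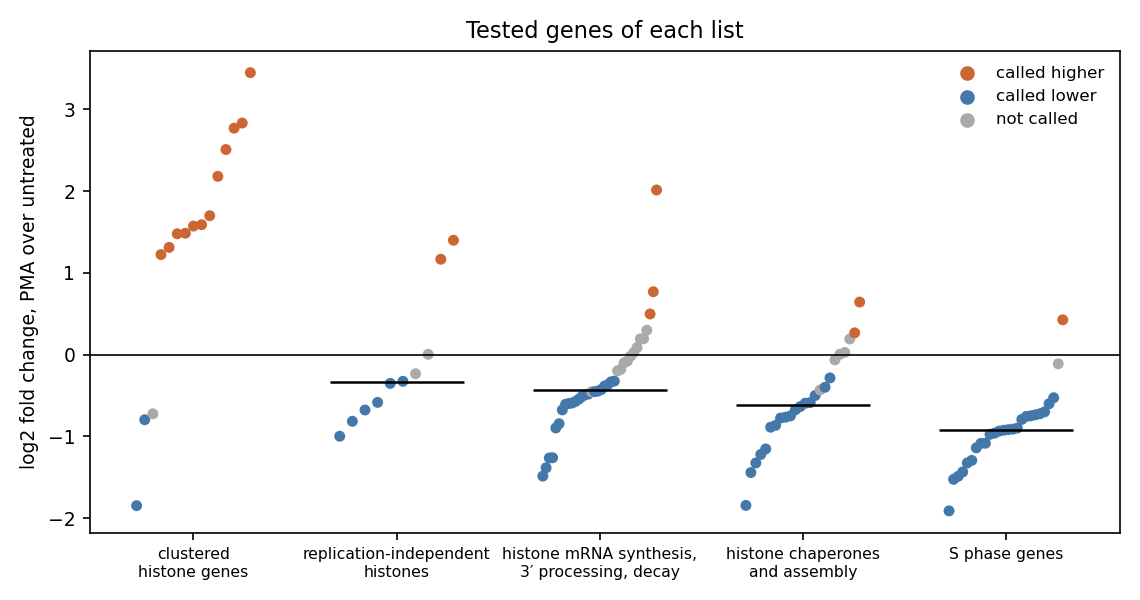
Log2 fold change of PMA over untreated by edgeR for each tested clustered histone gene and each tested gene of 4 related lists, in rising order within a list, with genes called higher in orange, lower in blue and not called in grey. Black lines are list medians, between -0.34 for replication-independent histone genes and -0.92 for S phase genes, and none is drawn for the clustered histone genes because 6 of the 15 passed the minimum through PMA libraries alone.

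Because the measurement rests on tail capture, RNAs listed as carrying no poly(A) tail were read in the same libraries. MALAT1 is a nuclear RNA whose major 3′ end is made without a tail but which holds internal A-rich stretches. NEAT1, also nuclear, gives a tailed form besides a tail-less one, so its value is not one of tail-less RNA alone. MALAT1 and NEAT1 both rose. MALAT1 went from 11.8 to 45.4 FPKM (log2 fold change 1.97 ± 0.07, edgeR adjusted p = 4.11e-07) and NEAT1 from 7.67 to 16.4 FPKM (1.13 ± 0.21, edgeR adjusted p = 0.00188). Of the 23 listed RNAs in the table, 5 passed the minimum, and the other 3, RN7SK, RN7SL1 and RN7SL2, passed the test in neither direction. RN7SK was at 0.364, 0.637 and 5.14 FPKM untreated and at 0.990, 1.40 and 1.15 FPKM after PMA, so that untreated replicate 3 stood apart. The 21 RNAs other than MALAT1 and NEAT1 summed to 10.2, 6.61 and 25.7 FPKM untreated and to 40.6, 10.03 and 7.65 FPKM after PMA. The highest of these sums was in PMA replicate 1, which also had the highest summed level of clustered histone genes. Without RN7SL1 and RN7SL2 as well, the sums were 2.25, 2.07 and 9.96 FPKM untreated and 4.41, 3.38 and 4.08 FPKM after PMA, and untreated replicate 3 was the highest. The part of tail-less RNA left in the libraries in the histone values was not tested. Without PMA replicate 1, 9 clustered histone genes were called higher and 2 lower.

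The depth and identity of the libraries were as follows. The estimated counts summed to 61547700 to 88227830 in the untreated libraries and 64361886 to 65698834 in the PMA libraries, with TMM factors near 1. The nearest replicates were PMA 2 and PMA 3, whose mean chi-square, a measure of how far 2 libraries differ, was 2.76. Every other pair within a group had 14.1 to 33.2. Whether PMA 2 and PMA 3 are independent samples was not tested. With their counts averaged, 11 clustered histone genes were called higher and 1 lower. Of 12 monocytic markers, 9 were at or above 1 FPKM in every library, while CD14 and MPO were under 1 FPKM in all. None of the lymphoid, erythroid, fibroblast or epithelial markers looked for reached 1 FPKM in all libraries. Under 1 FPKM in every library were 3 of the 4 lymphoid markers in the table and 5 of the 8 fibroblast and epithelial ones, so the rest reached it in some. The defining T-cell genes CD3D, CD3E and CD3G had no entry in the deposited table.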

How the data were processed

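RNA-seq was carried out on 3 untreated and 3 PMA-treated THP-1 libraries from mRNA captured with oligo(dT) beads. The ChIP-seq data of the study were not analysed here. For every feature the authors deposited an estimated count per library, not scaled to library size, and an FPKM value scaled to transcript length and depth. Both hg38 and DESeq2 appear in the submitters' processing notes. Which aligner, counter and annotation were used, and whether strand was used, is not given in the sources used here. Low counts were multiples of 4 in 37.2% to 39.1% of cases, so 1 read pair may stand for more than 1 count.

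Of features sharing a name the most abundant was kept, which left 35042. The counts were tested with edgeR 4.0.16 in R 4.3.3 (quasi-likelihood, TMM, treatment as the only term, Benjamini-Hochberg) over the 12947 genes that reached 1 FPKM in 3 or more of 6 libraries, and called at an adjusted p under 0.05. The standard error is the log2 fold change divided by the square root of the F statistic. Fits were checked on simulated counts. The p-values measure the spread between these 6 libraries, which the study calls biologically independent experiments. They take PMA replicates 2 and 3 as separate samples, which was not tested. Intervals for single counts were not used since reads carry no molecular identifiers. Stem-loops were searched with pysam 0.24.0 after the stop codons of GENCODE v44. The replicate numbers come from the titles. The deviations of same-numbered untreated and PMA libraries from their group means correlated at 0.487, 0.135 and 0.109. Untreated replicate 2 with PMA replicate 3 reached 0.278 and untreated replicate 3 with PMA replicate 2 reached 0.212. Whether the numbers pair the libraries is thus not settled. The main test took the libraries as unpaired, and an alternative used the replicate number as a block.

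The alternatives were other scalings (RLE, upper quartile), DESeq2 1.42.0, limma 3.58.1 on log2 FPKM with pseudocounts of 0.1, 1 and 5, no filter, a mean FPKM of at least 5, counts divided by 4, a replicate block, PMA replicates 2 and 3 averaged, each library left out, and, chosen after seeing the data, near-identical pairs summed. The clustered histone genes and the gene lists were chosen with earlier results of these data known. Library values were given for the 10 clustered genes with the highest mean FPKM, up to 6 called with the largest rise and 6 with the largest fall, and those known to be polyadenylated. Of each other list up to 6 called genes with the largest change, and a few fixed ones, were named. Other genes named, such as those behind counts of 5 or fewer, H4-16, H2AC12, H2BC9, H3C14 and the features overlapping H2BC18, were chosen after their values were seen.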

Additional observations from a re-analysis of the deposited data

How the results depend on the processing

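Under 18 alternatives, no result reversed. The calls of 9 of the 15 tested clustered histone genes were kept in every alternative that tested them (H1-2, H2AC6, H2AC18, H2AC19, H2BC12, H2BC18, H2BC21, H4C14 and H4C15), whereas those of H2AC20, H2BC4, H2BC5, H2BC9, H3C14 and H3C15 changed in at least 1. The number called higher, 12, was 3 with a mean FPKM of at least 5, where only 4 of the genes were tested, and 9 to 12 with 1 library left out. The number called lower, 2, was 1 with no filter, 1 with a mean FPKM of at least 5, 1 with PMA replicates 2 and 3 averaged, and 1 to 2 with 1 library left out. It was 1 without untreated replicate 1 and without untreated replicate 3, where H2AC20 lost its call, and the cause was not tested. With the replicate number as a block, 12 were called higher and 2 lower, and the block changed no call of a clustered histone gene. With no filter the median log2 fold change of all features moved from -0.01 to 0.20.

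The 48 genes under the minimum held at most 534 counts over all libraries, and the size of change detectable at that depth was not tested. H2AC18 with H2AC19, H3C14 with H3C15 and H4C14 with H4C15 share nearly all their sequence, and 9 of the 63 records overlap another feature. Tail capture leaves most histone mRNA of dividing cells outside the measurement.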
